A study of Arabidopsis thaliana with 12 samples.

Results

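CBF1 (AT4G25490), CBF2 (AT4G25470), CBF3 (AT4G25480), CBF4 (AT5G51990) and DREB2A (AT5G05410), 5 transcription factor genes of Arabidopsis thaliana, were taken by their identifiers from a gene table of 32389 genes with counts, and all 5 were found. The table names the CBF genes by their other symbols, DREB1B, DREB1C, DREB1A and DREB1D. Messenger RNA had been sequenced from whole germinated seeds to ask how the serine/arginine-rich splicing factor SR34A acts on gene expression and splicing during seedling establishment and in the response to abscisic acid (ABA), a stress hormone. The wild type (WT) is Col-0, and the mutant is the line sr34a-1. Stratified seeds of either genotype were grown for 44 h on MS medium in continuous white light. They were then moved for 2 h to the same medium without hormone (mock) or with 0.5 µM ABA. Either genotype under either condition makes 4 groups, each with 3 libraries labelled as biological replicates. A single mutant line was used, and p-values measure the spread between these libraries.

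CBF and DREB2 proteins belong to the AP2/ERF family and bind the dehydration-responsive element (DRE), a short DNA motif upstream of many cold and drought genes. CBF1, CBF2 and CBF3 are best known as genes that cold switches on within hours, and their products activate COR genes that protect cells from freezing. CBF4 is known for a response to drought and ABA, and DREB2A for responses to drought, salt and heat. In Arabidopsis the DREB2A protein is held low by ubiquitin ligases in unstressed plants, so that its transcript level does not give its activity.

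Total counts ranged from 61128187 to 83268758 per library. SR34A itself had 89.9 to 101.2 CPM (counts per 1e+06 reads, scaled for composition by TMM factors) in WT libraries and at most 14.2 CPM in those of the mutant. Germination was under way in all libraries, with 8370 to 13574 CPM of isocitrate lyase (ICL), which turns seed oil into sugar. Between the genotypes, however, stage markers moved, ICL among them. It had 8370 to 10142 CPM in WT mock and 11499 to 13497 CPM in sr34a-1 mock. With ABA it had 9520 to 10690 CPM in WT and 12510 to 13574 CPM in sr34a-1. MLS, also a gene of reserve use, lay above WT in sr34a-1 mock but overlapped WT with ABA. The summed level of 3 seed reserve genes (CRU1, CRU3 and OLEO1) was 87.8 to 131 CPM in WT mock and 203 to 283 CPM in sr34a-1 mock, and 209 to 304 CPM in WT ABA and 456 to 688 CPM in sr34a-1 ABA, with no overlap for any of the 3. The sum of the photosynthesis genes RBCS1A and CAB1 was 7196 to 7956 CPM in WT mock and 4860 to 5745 CPM in sr34a-1 mock, and 7468 to 8838 CPM in WT ABA and 5378 to 5672 CPM in sr34a-1 ABA. The share of all genes without overlap between the genotypes is not given here. The part of this marker difference in the genotype results given here was not tested. In whole seedlings, more cells with a transcript and more transcript per cell cannot be told apart.

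CBF2, CBF3 and CBF1 lie in a row on the minus strand of chromosome 4 of the TAIR10.1 assembly, whose nuclear coordinates are those of TAIR10. CBF2 runs from 13015250 to 13016235, CBF3 from 13018010 to 13019400 and CBF1 from 13021780 to 13022996, with 1774 bases between CBF2 and CBF3 and 2379 between CBF3 and CBF1. CBF4 (21116877 to 21117860, minus strand) and DREB2A (1602205 to 1604112, plus strand) are on chromosome 5. Coding sequences of the CBF1, CBF2 and CBF3 genes were 85.0% to 86.7% identical in pairwise alignment, CBF4 was 68.3% to 68.9% identical to them, and DREB2A 42.7% to 45.6% identical to the 4 CBF genes. Of the 593 windows of 50 bases in the CBF1 coding sequence, 29 also occur in CBF2. CBF3, CBF4 and DREB2A had 0 such windows that occur more than once in the chromosomes. How the authors placed reads that match more than 1 gene is not given in the sources used here, so the split of reads between CBF1 and CBF2 is uncertain in that stretch. The last 73 bases of DREB2A overlap AT5G05420 on the other strand, and the use of strand in counting is likewise not given in the sources used here.

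The 300 bases before the annotated transcript start were read from the TAIR10.1 sequence to show what the members share upstream. Sequences are given from 5′ to 3′ on the strand of the gene for DREB2A and CBF4, which differed between genotypes with ABA, for CBF2, the most expressed CBF gene, and for CBF1, which was not detected in WT mock. Capitals mark ACGTG on either strand, the core of the ABA-responsive element (ABRE) that ABF factors bind.
DREB2A, chr5:1601905-1602204, plus strand: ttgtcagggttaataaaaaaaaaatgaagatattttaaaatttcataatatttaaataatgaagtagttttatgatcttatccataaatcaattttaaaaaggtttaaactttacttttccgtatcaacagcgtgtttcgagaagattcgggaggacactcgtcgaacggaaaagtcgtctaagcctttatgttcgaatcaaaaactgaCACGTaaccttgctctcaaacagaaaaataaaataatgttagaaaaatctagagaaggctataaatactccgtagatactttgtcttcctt
CBF4, chr5:21117861-21118160, minus strand: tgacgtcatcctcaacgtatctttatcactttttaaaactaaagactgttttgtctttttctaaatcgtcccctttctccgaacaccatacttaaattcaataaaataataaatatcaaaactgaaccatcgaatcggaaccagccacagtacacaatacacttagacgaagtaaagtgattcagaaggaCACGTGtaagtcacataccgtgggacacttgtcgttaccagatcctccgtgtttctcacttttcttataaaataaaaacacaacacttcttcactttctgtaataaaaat
CBF2, chr4:13016236-13016535, minus strand: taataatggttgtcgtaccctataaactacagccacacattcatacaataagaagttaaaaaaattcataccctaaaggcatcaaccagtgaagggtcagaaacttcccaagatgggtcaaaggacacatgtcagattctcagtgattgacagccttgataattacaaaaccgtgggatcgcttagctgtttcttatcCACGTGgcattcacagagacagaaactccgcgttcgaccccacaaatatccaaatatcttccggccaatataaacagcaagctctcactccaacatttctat
CBF1, chr4:13022997-13023296, minus strand: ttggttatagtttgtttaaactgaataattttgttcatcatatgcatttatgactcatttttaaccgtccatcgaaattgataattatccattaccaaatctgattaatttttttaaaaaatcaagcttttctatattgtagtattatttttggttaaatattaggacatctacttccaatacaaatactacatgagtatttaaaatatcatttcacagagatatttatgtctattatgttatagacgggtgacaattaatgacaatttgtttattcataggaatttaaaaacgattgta
In CBF4 and CBF2 the core stands as the palindrome CACGTG, the G-box, which reads as ACGTG on both strands. It begins 110 bases before the start in CBF4 and 102 bases before it in CBF2. DREB2A holds 1 core on the minus strand, 91 bases before its start, and CBF3 has 1 at 258 bases. CBF1 has none in this window.

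Over 27438 upstream windows of the same length, 25.6% hold ACGTG on either strand and 7.09% hold CACGTG. The DRE core CCGAC, which 13.9% of windows hold, occurs in none of the 5. Of the other letters searched on both strands, CGCGT, from the element of the calcium-linked CAMTA factors, is found in CBF2 and in 7.89% of windows. AATATCT, the core of the clock-linked evening element, is in the windows of CBF1, CBF2, CBF3 and DREB2A and in 11.8% of all. GAANNTTC, a core of heat shock elements, is in CBF2 and DREB2A and in 11.5% of windows. TGTCAGG, the element through which GRF7 is known to repress DREB2A, lies 299 bases before the start of DREB2A and in 0.897% of windows. These are matches of letters only.

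**Figure D1:**
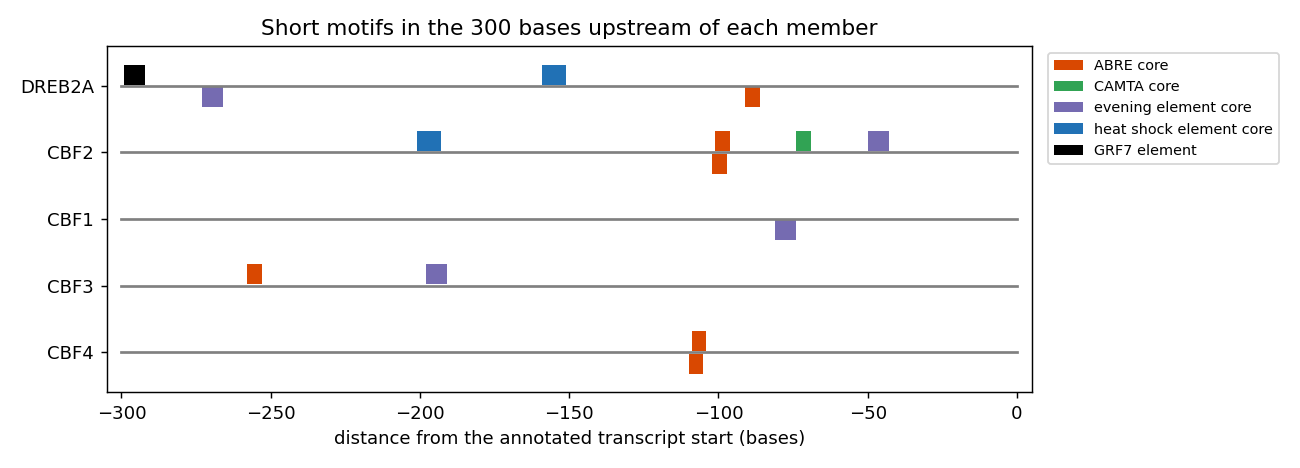
Positions of 5 short motifs in the 300 bases before the transcript start of each member (x axis, bases), with boxes above the line for the strand of the gene and below it for the other strand. The ABRE core lies 87 to 110 bases before the start in DREB2A, CBF2 and CBF4, farther away in CBF3, and is not in the window of CBF1.

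ABA raised all 5 genes in WT and in sr34a-1, although the call of CBF3 in WT was weak. DREB2A, by far the most expressed, rose 4.19-fold in WT and CBF2 rose 5.05-fold, and in WT the other members, CBF1, CBF3 and CBF4, rose from group means under 3 counts per library. In sr34a-1 the ABA libraries of every member lay above its mock libraries, as they did for 24.2% of all genes tested. In WT this held for every member but CBF3, beside 23.2% of all genes. A call here is a Benjamini-Hochberg adjusted p under 0.05 in edgeR's quasi-likelihood test over 21256 genes, of which 18.2% were called higher with ABA in WT and 19.4% in sr34a-1. CBF1, CBF3 and CBF4 reached that test through their ABA libraries, so that their number among the calls carries no weight of its own.

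DREB2A had 15.5, 11.1 and 7.23 CPM in the WT mock libraries and 53.0, 43.3 and 44.7 CPM in the WT ABA libraries. In sr34a-1 it had 27.6, 17.4 and 15.1 CPM under mock conditions and 82.2, 67.8 and 73.6 CPM with ABA. Every ABA library stood above every mock library of either genotype, and the mock libraries spread widely. The increase with ABA was 2.07 on the log2 scale in WT (SE 0.23, adjusted p 5.18e-06 in edgeR's quasi-likelihood test) and 1.89 in sr34a-1 (SE 0.22, adjusted p 7.38e-06).

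CBF2 had 0.224, 0.316 and 0.159 CPM in WT mock and 1.03, 1.30 and 1.26 CPM in WT ABA, from 12 to 92 counts per library. In sr34a-1 mock it had 0.0545, 0.412 and 0.348 CPM, and in sr34a-1 ABA 1.86, 1.87 and 1.16 CPM. Groups with and without ABA did not overlap in either genotype, while the first sr34a-1 mock library was well below its replicates. The log2 increase was 2.34 in WT (SE 0.43, adjusted p 0.000605, edgeR's quasi-likelihood test) and 2.56 in sr34a-1 (SE 0.41, adjusted p 0.000157).

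CBF1 had 0 counts in each WT mock library and 15, 21 and 15 counts in WT ABA, or 0.258 ± 0.0336 CPM (SD, n = 3). In sr34a-1 it had 7, 6 and 6 counts under mock conditions and 19, 40 and 26 counts with ABA. Thus WT mock was the only group in which CBF1 was not detected, where a count of 0 allows up to 0.0403 CPM, the value of 3 counts at mean depth. The mean of the floors of the single WT mock libraries is slightly higher. Against that mean, CBF1 was at least 6.31-fold higher in WT ABA than in WT mock (adjusted p 3.95e-05 in edgeR's quasi-likelihood test). In sr34a-1 its log2 increase was 2.18 (SE 0.42, adjusted p 0.00106 in the same test).

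CBF3 was the least steady member. It had 2, 0 and 6 counts in WT mock and 13, 5 and 23 counts in WT ABA, so that the groups overlapped. In sr34a-1 it had 0, 3 and 1 counts under mock conditions and 23, 12 and 44 counts with ABA, which did not overlap. Summed over libraries and scaled to depth, the ratio of ABA to mock counts was 5.83 in WT (95% exact interval 2.70 to 14.4) and 20.5 in sr34a-1 (7.71 to 77.2). These intervals cover counting error only and not the spread between libraries. The call in WT (adjusted p 0.0466, edgeR's quasi-likelihood test) was lost in 7 of 12 fits that left out 1 library. These left out WT mock replicate 1 or 2, WT ABA replicate 1 or 3, sr34a-1 mock replicate 2 or 3, or sr34a-1 ABA replicate 1 (adjusted p 0.0512 to 0.204). It was also lost in limma on log2(cRPKM + 1) (adjusted p 0.130) and in a fit of the compared libraries only (0.0528). Without WT mock replicate 3, which holds 6 of the 8 WT mock counts, the log2 increase in WT moved from 2.51 to 3.80. In sr34a-1 the log2 increase was 4.25 (SE 0.96, adjusted p 0.00247 in the same test).

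CBF4 had 2, 0 and 0 counts in WT mock and 10, 13 and 8 counts in WT ABA. In sr34a-1 it had 2, 2 and 4 counts under mock conditions and 45, 39 and 41 counts with ABA. The mock libraries of either genotype hardly rose above 0, and the sr34a-1 ABA libraries stood apart from all others. The ratio of summed counts was 17.6 in WT (95% exact interval 4.49 to 152, adjusted p 0.00113 in edgeR's quasi-likelihood test) and 16.2 in sr34a-1 (7.99 to 38.4, adjusted p 1.81e-05). Without WT mock replicate 1, which holds both WT mock counts, the fitted log2 increase in WT moved from 3.89 to 6.54.

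**Figure D2:**
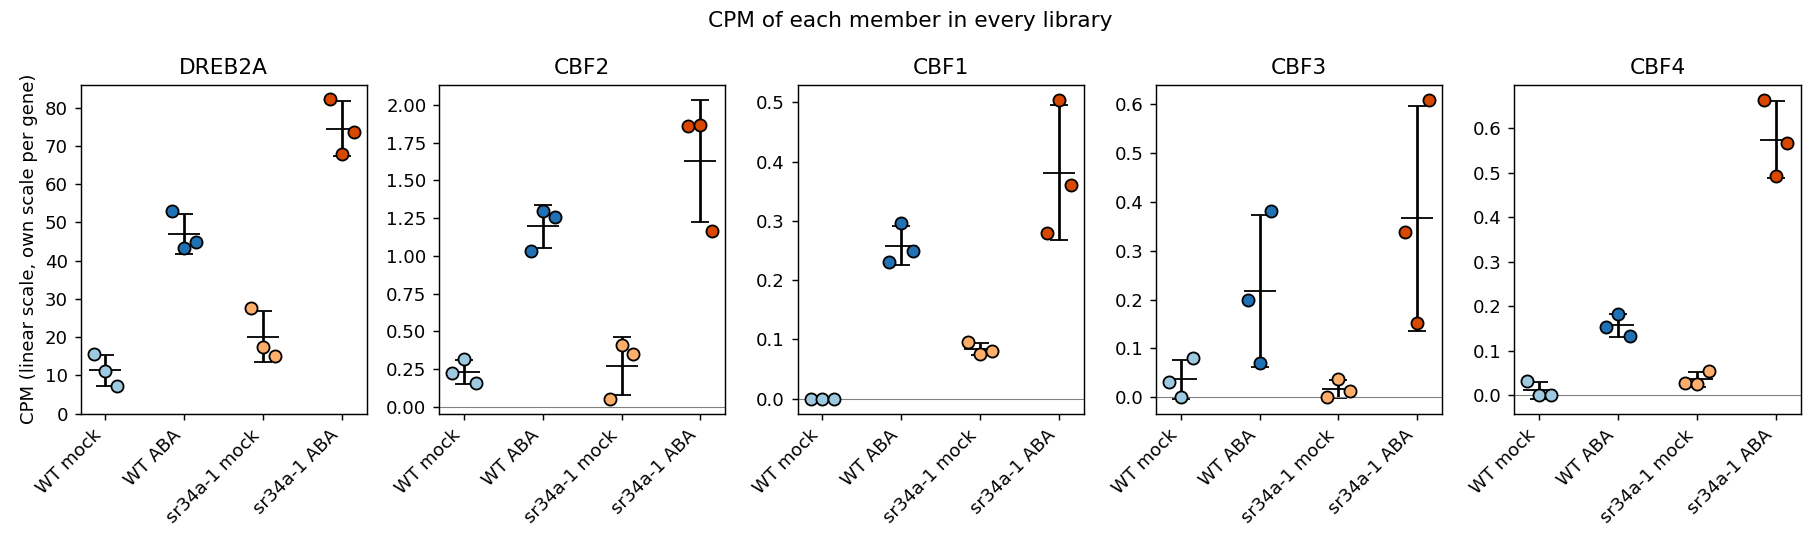
CPM (y axis, linear, with its own scale for each gene) of the 5 members in every library, with points for libraries, long ticks for group means and bars for the SD of 3 libraries. With ABA, DREB2A reaches 43.3 to 82.2 CPM and the CBF genes stay under 2 CPM, and CBF4 separates sr34a-1 ABA from the other groups.

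Levels of different genes were compared per length, on the deposited cRPKM scale (reads scaled to transcript length and to depth). In WT mock, DREB2A stood at 8.18 ± 2.95 cRPKM and CBF2 at 0.313 ± 0.111 (SD, n = 3 each), and the other members were at 0.0467 or less. CBF3, CBF4 and CBF1 could not be ordered there because their ranges overlapped. In WT ABA, DREB2A was at 32.9 ± 3.62 cRPKM, followed by CBF2 at 1.55 ± 0.188. CBF1 (0.317 ± 0.0404), CBF3 (0.277 ± 0.201) and CBF4 (0.247 ± 0.0404) again overlapped. In sr34a-1 mock, DREB2A was at 14.5 ± 4.71 cRPKM and CBF2 at 0.363 ± 0.257, and the range of CBF2 overlapped that of CBF1. In sr34a-1 ABA, DREB2A was at 52.6 ± 4.78 and CBF2 at 2.12 ± 0.526 cRPKM. CBF4 came next at 0.907 ± 0.130, above CBF1 (0.467 ± 0.142), while CBF3 (0.467 ± 0.297) overlapped CBF1 and reached the lowest CBF4 library, at 0.78 cRPKM, so CBF4 and CBF3 could not be ordered.

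Between genotypes, DREB2A was higher in sr34a-1 under both conditions, CBF1 differed under mock conditions and CBF4 with ABA. CBF2 and CBF3 passed the test in neither condition. Over all genes tested, 8.42% were called higher in sr34a-1 under mock conditions and 11.1% with ABA, against 2 of the 5 members in each. CBF4 reached that test only through its sr34a-1 ABA libraries, so the number of members called with ABA carries no weight of its own.

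DREB2A differed by a log2 fold change of 0.84 under mock conditions (SE 0.23, adjusted p 0.0232 in edgeR's quasi-likelihood test), although the lowest sr34a-1 library, at 15.1 CPM, lay just under the highest WT library, at 15.5 CPM. With ABA, the groups did not overlap, as the 3 sr34a-1 libraries had 67.8 CPM or more and the 3 WT libraries 53.0 CPM or less. That log2 fold change was 0.66 (SE 0.21, adjusted p 0.0365 in the same test). Under mock conditions sr34a-1 was the higher one in every same-numbered pair of libraries. With ABA any pairing gives that outcome, as the groups did not overlap. With the replicate number as a block over all 12 libraries, the adjusted p-values in edgeR's quasi-likelihood test were 0.000171 under mock conditions and 0.000294 with ABA. That block assumes a replicate effect shared by mock and ABA libraries. These p-values therefore do not measure a pairing of genotypes within a treatment. Without the block both calls were near the threshold. The call under mock conditions was lost without WT mock replicate 2 or 3 or sr34a-1 mock replicate 1 (adjusted p 0.0795, 0.102 and 0.134), and in the last fit the log2 fold change was 0.53. It was also lost in a fit of the compared libraries only (adjusted p 0.0684). With ABA it was lost without WT ABA replicate 2 or 3 or sr34a-1 ABA replicate 1 or 3 (adjusted p 0.0797 to 0.112), and in DESeq2 (adjusted p 0.0834) and limma (0.0555). Averaged over treatments, DREB2A was higher in sr34a-1 by 0.75 on the log2 scale (SE 0.16, adjusted p 0.00204), and this call held in every alternative and every fit without 1 library.

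CBF4 was higher in sr34a-1 with ABA, at 0.574 ± 0.0860 CPM against 0.157 ± 0.0254 CPM in WT (SD, n = 3 each). The lowest sr34a-1 library had 0.492 CPM and the highest WT library 0.183 CPM. The log2 fold change of 1.85 (SE 0.41, adjusted p 0.00496 in edgeR's quasi-likelihood test) was the largest of the 5 members in this comparison. Every one of the 12 fits that left out a library called it, but all of them kept the genes that passed the filter over all 12 libraries. CBF4 passed that filter only through its sr34a-1 ABA libraries, so these fits do not test that choice. Without the filter the adjusted p was 0.0109 in edgeR's quasi-likelihood test. DESeq2 gave no adjusted p because of the low counts. Under mock conditions the group means of CBF4 were under the floor in both genotypes, although sr34a-1 mock replicate 3 held 4 counts.

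CBF1 was detected in all 3 sr34a-1 mock libraries and in no WT mock library. At 0.0836 ± 0.0106 CPM (SD, n = 3) it was at least 2.04-fold higher in sr34a-1 than the mean of the WT mock library floors (adjusted p 0.00488 in edgeR's quasi-likelihood test). The call rests on 19 counts in all and was not reached by limma on log2(cRPKM + 1), where the adjusted p was 0.176. With ABA the groups overlapped, at 0.258 ± 0.0336 CPM in WT against 0.381 ± 0.114 CPM in sr34a-1, and the log2 difference was 0.56 in edgeR's quasi-likelihood test (SE 0.36, adjusted p 0.291). CBF2 differed by 0.22 under mock conditions (SE 0.50, adjusted p 0.810) and by 0.45 with ABA (SE 0.36, adjusted p 0.404). CBF3 differed by 0.77 with ABA (SE 0.65, adjusted p 0.432) and without it had group means under the floor in both genotypes, although WT mock replicate 3 held 6 counts. With the replicate number as a block over all 12 libraries, 5381 genes in place of 3488 differed under mock conditions. CBF1 and DREB2A were again the members called.

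The ABA response itself did not pass a test of difference between genotypes for any member. Over all genes, 0 of 21256 passed in edgeR's quasi-likelihood test (0% called), 1374 genes or 6.46% had an unadjusted p under 0.05, and DESeq2 called 38. The log2 response in sr34a-1 minus that in WT was -0.17 for DREB2A (SE 0.31, adjusted p 0.963), 0.23 for CBF2 (SE 0.62, adjusted p 0.980), 1.74 for CBF3 (SE 1.56, adjusted p 0.886) and 0.075 for CBF4 (SE 0.97, adjusted p 0.996). For CBF1 the unadjusted p was 0.00148 and the adjusted p 0.485, and its size cannot be given because WT mock held no count. These SEs were larger for CBF2, CBF3 and CBF4 than for DREB2A, and the smallest response difference that could be detected was not computed.

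**Figure D3:**
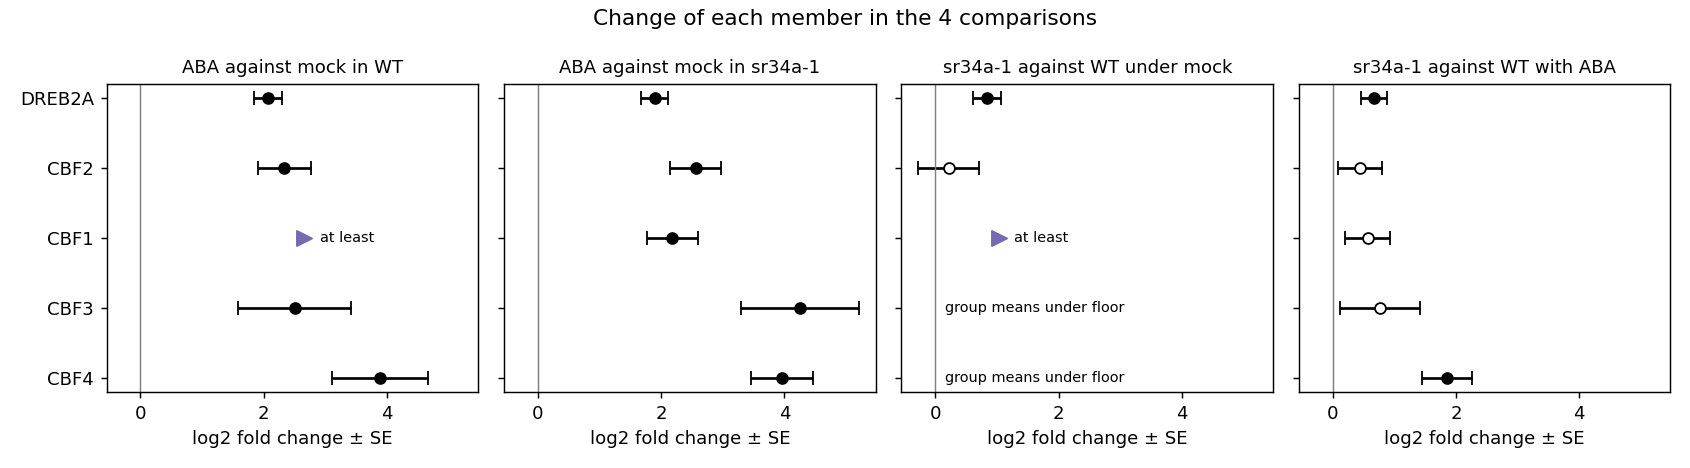
Log2 fold change (x axis) of each member in 4 comparisons, with bars for the SE, filled points for an adjusted p under 0.05 and open points for the rest. Triangles give lower bounds against the floor of 3 counts for CBF1, which has no count in WT mock, and CBF3 and CBF4 are left out under mock conditions because the group means of both genotypes are under the floor.

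Relatives of the members were examined from a list of 9 other DREB genes. DDF1, DDF2 and DREB2H had at most 4 counts in any library and were not tested. Of the 6 tested, 5 were higher with ABA averaged over genotypes and 1, DREB2C, was lower. Their median log2 fold change was 0.92, beside -0.015 over all genes, of which 24.7% were called higher and 26.4% lower in that average. DREB2G had the largest change, with 0.348 ± 0.231 CPM in WT mock and 2.23 ± 0.198 CPM in WT ABA, and 0.766 ± 0.204 and 5.21 ± 0.273 CPM in the mutant (SD, n = 3 each). DREB2E had 0.282 ± 0.0916 and 1.83 ± 0.0698 CPM in WT, and 0.947 ± 0.154 and 3.07 ± 0.618 CPM in the mutant. Both were also higher in sr34a-1 than in WT, by 1.15 (SE 0.21, adjusted p 0.000779) and 1.23 (SE 0.16, adjusted p 4.65e-05) on the log2 scale averaged over treatments. DREB2D followed, with 0.95 with ABA and 0.56 between genotypes (adjusted p 6.37e-06 and 0.00184 in edgeR's quasi-likelihood test). Of the 6, 5 were higher in sr34a-1 in that average and 1, DREB2F, was lower, beside 17.9% of all genes called higher and 16.0% lower.

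Known regulators of the CBF genes moved in both directions. Of 20 genes, 8 were higher and 3 lower with ABA averaged over genotypes, and the median log2 fold change was 0.015. Of all genes tested, 24.7% were called higher and 26.4% lower in that average. ICE1, a MYC-type factor that activates CBF3 in the cold, rose by 0.56 on the log2 scale (SE 0.04, adjusted p 3.77e-09). PIF4, a light-regulated repressor of CBF genes, and the zinc finger gene ZAT12 rose by 0.48 each on the log2 scale (adjusted p 6.03e-05 and 0.00822). Between genotypes, averaged over treatments, 3 were higher and 6 lower in sr34a-1, beside 17.9% of all genes called higher and 16.0% lower. The largest of these were in PIF7, a further repressor of CBF genes, with a log2 difference of -0.61 (adjusted p 0.0319), PIF4 with -0.53 (adjusted p 7.56e-05) and ZAT12 with 0.39 (adjusted p 0.0383), all from edgeR's quasi-likelihood test. The calls of PIF7 and ZAT12 were lost in 7 and 6 of 12 fits without 1 library.

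Among 19 genes that act on DREB2A, 10 were higher with ABA and 0 lower, again averaged over genotypes, with a median log2 fold change of 0.088. The shares of all genes were 24.7% higher and 26.4% lower. ABF3, whose product binds ABREs, had 39.9 ± 4.65 CPM in WT mock and 139.5 ± 5.35 CPM in WT ABA, and 43.0 ± 1.92 and 156.9 ± 5.92 CPM in the mutant (SD, n = 3 each). HSFA1E, a heat shock factor, and ABF2 rose by 0.89 and 0.85 on the log2 scale (adjusted p 3.94e-08 and 3.91e-08 in edgeR's quasi-likelihood test). The ubiquitin ligase genes DRIP1 and DRIP2 had log2 changes of -0.030 and -0.075 and were not called in that average. Between genotypes, averaged over treatments, 6 were higher and 2 lower in sr34a-1, beside 17.9% of all genes called higher and 16.0% lower. The repressor gene GRF7 had the largest difference, at 0.51 (SE 0.08, adjusted p 0.000204), followed by HSFA1E at 0.38 (adjusted p 0.000557) and the DREB2A cofactor NF-YC10 at 0.17 (adjusted p 0.00609).

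Genes that CBF or DREB2A proteins are known to activate mostly rose with ABA. Of 14 CBF targets, 12 were higher and 1 lower averaged over genotypes, with a median log2 fold change of 3.23. In that average 24.7% of all genes were called higher and 26.4% lower. COR15A, a chloroplast protein that protects membranes in the cold, had 0.0726 ± 0.0641 CPM in WT mock and 10.8 ± 1.93 CPM in WT ABA, and 0.0566 ± 0.0538 and 16.2 ± 2.14 CPM in the mutant (SD, n = 3 each). RD29A, a target shared by both families, had 19.2 ± 4.94 and 1087 ± 59.4 CPM in WT, and 31.7 ± 6.06 and 1656 ± 113 CPM in the mutant. KIN1 rose by 5.67 on the log2 scale (SE 0.07). The lower gene was GOLS3, a galactinol synthase, at -0.88. Many of these genes, RD29A among them, also carry ABREs and answer to ABF factors.

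Of 7 DREB2A targets, which include RD29A and COR47 from the CBF list, 6 were higher and 1 lower with ABA averaged over genotypes. Their median log2 fold change was 2.61, and 24.7% of all genes were called higher and 26.4% lower. RD29B and LEA7, a late embryogenesis abundant gene, rose by 3.62 and 3.55 on the log2 scale. HSFA3, a heat shock factor gene that DREB2A activates in heat, went the other way, with 4.83 ± 0.444 and 3.32 ± 0.0720 CPM in WT, and 4.92 ± 0.122 and 3.48 ± 0.632 CPM in the mutant (SD, n = 3 each, log2 fold change -0.52, SE 0.09, adjusted p 0.000125 in edgeR's quasi-likelihood test).

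In the genotype comparison averaged over treatments, 5 of 7 DREB2A targets and 5 of 14 CBF targets were higher in sr34a-1 and 0 lower, beside 17.9% of all genes called higher and 16.0% lower. Their median log2 fold changes were 0.39 and 0.12, beside 0.0099 over all genes. RD29B differed by 1.00 (SE 0.11, adjusted p 1.31e-05), LEA7 by 0.84 (SE 0.08, adjusted p 2.88e-06) and RD29A by 0.66 (SE 0.10, adjusted p 0.00024). Of the CBF targets, KIN1 differed by 0.92 (adjusted p 1.35e-06) and the zinc finger gene ZAT10 by 0.80 (adjusted p 3.7e-06), while COR15A (0.092, SE 0.46, adjusted p 0.901) was not called. The mock levels of COR15A given above were near the floor, so this average says little about COR15A with ABA, where its mean was higher in sr34a-1. With ABA alone, 7 of 14 CBF targets and 4 of 7 DREB2A targets were called higher in sr34a-1, beside 11.1% of all genes. The seed reserve genes named above moved in the same direction, and their part in these differences was not tested.

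**Figure D4:**
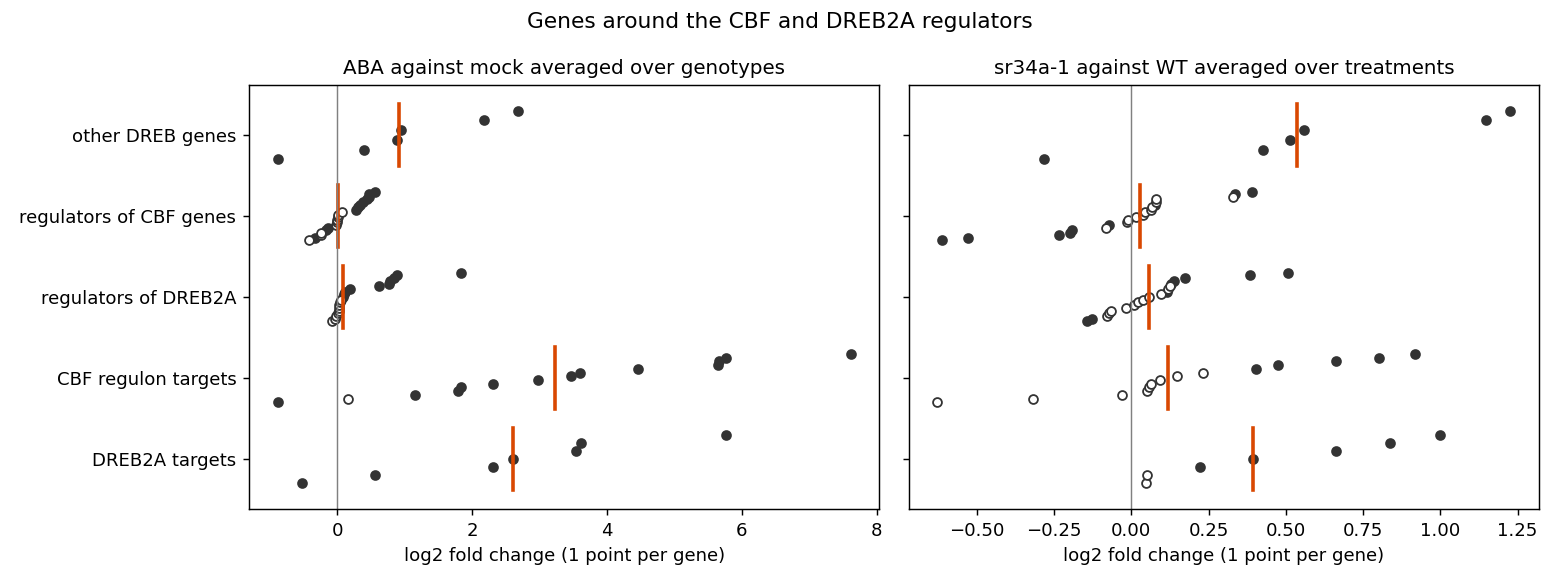
Log2 fold change (x axes, with different scales) of each tested gene in 5 lists, with ABA on the left and sr34a-1 against WT on the right, filled points for an adjusted p under 0.05 and orange lines for the median of each list. The targets reach 7.62 with ABA, in COR15A, while the regulators of CBF genes have a median of 0.015.

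Genes beside the members were read to see whether the members' changes extended along the chromosome. Of 10 neighbouring loci, 8 were tested, and 5 were higher and 2 lower with ABA averaged over genotypes. In that average 24.7% of all genes were called higher and 26.4% lower. Beside the CBF array, RS40, a splicing factor gene next to CBF1, rose by 0.26 on the log2 scale (SE 0.03). AT5G05400, the nearest gene before DREB2A, was not called (0.18). LAC12, a laccase gene beyond it, had 0.0826 ± 0.0578 CPM in WT mock and 8.83 ± 3.08 CPM in WT ABA, and 0.0342 ± 0.0317 and 5.44 ± 1.48 CPM in the mutant (SD, n = 3 each). On the other side of DREB2A, FKBP15-3 (AT5G05420), which overlaps its end, had a log2 fold change of -1.25, and AT5G05430 one of -1.06 (adjusted p 0.000138 and 0.000976 in edgeR's quasi-likelihood test). The loci called lower and AT5G05400 all lie beside DREB2A, while every tested locus beside the CBF genes was called higher. The change of DREB2A was thus not shared by all its neighbours.

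DREB2A was the only member with entries in the splicing table, where the CBF genes, which have 1 exon in the annotation, had 0 events. Its 10 entries include 1 intron, of 257 bases, before the coding sequence (chromosome 5, 1602370 to 1602626). Retention of that intron was 0.83, 0.93 and 1.32 PSI (percent spliced in) in WT mock, 0.15, 0.44 and 0.48 PSI in sr34a-1 mock, 0.80, 1.05 and 1.52 PSI in WT ABA, and 0.76, 0.80 and 1.24 PSI in sr34a-1 ABA. The intron was thus almost always removed, and the sr34a-1 mock libraries were the lowest. Those low values rest on 0.51 to 2.53 corrected unspliced reads of 313 to 576 reads per library, and WT mock values on 1.51 to 3.55 of 162 to 269 reads. The mock groups did not overlap, and the difference was not tested. At the donor and the acceptor choice of DREB2A with values in all 12 libraries, the minor sites took at most 0.16% of reads. A further donor choice was read in 1 library only, with 1 read.

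The genes whose log2 CPM followed each member most closely over the 12 libraries were found by Pearson's r, given as a description since libraries of a group share their condition. For DREB2A these were AT5G18470 (r 0.993), AT5G11090 (0.985) and the flavonoid gene F3H (0.985). CBF4 was followed by the oleosin gene OL2 (0.984), the vacuolar sorting receptor gene VSR1 (0.981) and the autophagy gene ATG18A (0.980). For CBF1 they were AT4G18920 (0.989), UGT73B4 (0.981) and the protein phosphatase gene AIP1 (0.981). AT3G04040, CMTA6 and CNX2 came nearest to CBF2 (0.951 to 0.965), and AT5G42470, AT4G33945 and GOS12 to CBF3 (0.941 to 0.955). Among the members, r was highest between CBF4 and DREB2A (0.945) and lowest between CBF1 and CBF3 (0.668), and low counts of CBF1, CBF3 and CBF4 limit these values.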

How the data were processed

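RNA from 12 libraries of germinated seeds was compared in 4 groups set by the sample titles. The deposited table gives for each gene a count, which per the file headers is the number of reads and was not normalized, and an RPKM value called cRPKM, which the authors scaled to gene length and depth. The splicing table deposited by the authors gives PSI in percent, with read numbers in a quality field. The build was TAIR10, per the submitters' processing notes. The aligner and the counting tool are not given in the sources used here. All sample columns were matched by name, and 0 were left over. No pair of replicate libraries was alike within sampling noise (chi-square per degree of freedom 4.29 to 20.0).

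Counts were fitted with edgeR 4.0.16 in R 4.3.3 (quasi-likelihood test, a mean for each of the 4 groups, all 12 libraries, TMM factors, filterByExpr), tested on simulated data first. The SE is the log2 fold change divided by the square root of F. Adjusted p-values are Benjamini-Hochberg over 21256 genes, and a call is an adjusted p under 0.05. The floor is 3 counts per library, and exact intervals at 95% cover counting error only, as reads carry no molecular identifiers here. Alternatives were DESeq2 1.42.0, its size factors, no filter, limma 3.58.1 on log2(cRPKM + 1), the compared libraries only, a replicate block and fits without 1 library. Fits without 1 library kept the genes that passed the filter over all 12 libraries. Same-numbered libraries of the genotypes deviated together within each treatment (r 0.100 to 0.315 across genes, which are not independent replicates). Between treatments, r of same-numbered libraries ran from -0.0408 to 0.190, which overlaps that range. WT mock replicate 2 and sr34a-1 mock replicate 3, of unlike number, had r 0.133. With ABA, libraries of unlike number from the 2 genotypes all had negative r (-0.108 to -0.0351). The mock and ABA values thus differ and do not settle whether the numbers mark pairs of libraries. No fit paired within a treatment was run.

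The members and gene lists were chosen with earlier results of these data known. From each list, the text names up to 3 called genes with the largest absolute log2 fold change in each averaged comparison, and RD29A, COR15A and HSFA3. DREB2C, DREB2F, DRIP1, DRIP2, GOLS3, AT5G05400 and the untested DDF1, DDF2 and DREB2H were named after their values were seen. Positions and upstream sequences are from the RefSeq annotation and sequence of TAIR10.1, and coding sequences were aligned with Biopython 1.88.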

Additional observations from a re-analysis of the deposited data

How the results depend on the processing

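All calls of ABA against mock for DREB2A, CBF1, CBF2 and CBF4 were kept in both genotypes under every alternative tried and without each library in turn. Genes called between genotypes under mock conditions numbered 3488, and 1896 to 4066 without 1 library, with 1896, 1936 and 2038 without sr34a-1 mock replicate 1, WT mock replicate 2 and WT mock replicate 3. With ABA they numbered 4705, and 3081 to 4898 without 1 library, with 3081 and 3126 without sr34a-1 ABA replicate 3 and WT ABA replicate 2. Members called between genotypes under mock conditions fell from 2 to 1 with DESeq2, limma and the compared libraries only, and were 1 to 2 without 1 library. With ABA they fell from 2 to 0 with DESeq2 and 1 with limma, and were 1 to 2 without 1 library. DESeq2 gave no adjusted p for CBF1, CBF3 and CBF4 in either comparison. Genes whose ABA response differed between genotypes numbered 0, but 38 with DESeq2, 5 without the filter and 0 to 4 without 1 library.

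With the replicate number as a block over all 12 libraries, 5381 genes were called between genotypes under mock conditions and 74 had a different ABA response; the block changed no member's call.

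Direction changed only for values that were not called. For CBF1, whose response difference has no defined size, limma on log2(cRPKM + 1) gave 0.0099. That value depends on the added 1, so its direction carries no meaning of its own. The response difference of CBF4 was -0.075 in DESeq2, and the averaged genotype difference of CBF3 was 0.080 in limma. Without 1 library, the genotype difference under mock conditions ran from -0.22 to 0.68 for CBF2 and -2.15 to 0.32 for CBF3. The response difference ran from -0.23 to 0.66 for CBF2, -2.57 to 0.68 for CBF4 and -0.44 to 0.14 for DREB2A. The averaged genotype difference ran from -0.69 to 0.55 for CBF3, -0.30 to 0.60 for COR15A, -0.016 to 0.038 for ICE1, -0.031 to 0.091 for HSFA3, -0.038 to 0.25 for FKBP15-3 and -0.016 to 0.29 for AT5G05430. The cause of these changes was not tested. All 15 genes most alike to a member kept their r within 0.1 with a prior count of 0.5. At counts of 0 to 45 per library for CBF1, CBF3 and CBF4, depth limits what can be seen between genotypes.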
